A study of Homo sapiens with 15 samples.

Results

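The sites described here are FOXA1 peaks that were called in 22Rv1 cells with induced wild-type FOXA1, were not called there after the stereoprobe WX-02-23, and were called with and without WX-02-23 in cells with induced C258A FOXA1. They were chosen by a rule on 4 peak lists: a peak of the wild-type DMSO list was taken when it overlapped, by at least 1 bp, a peak of the C258A DMSO list and a peak of the C258A WX-02-23 list, and overlapped none of the wild-type WX-02-23 list. The rule found 1764 of the 31735 peaks of the wild-type DMSO list, or 5.56%; they are called WT-lost sites below. Lost means only that no peak was listed, since the files hold peaks and no read counts. The peaks that all 4 lists shared, 9659 in number, served as the comparison and are called all-4 peaks.

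FOXA1 was mapped by chromatin immunoprecipitation and sequencing (ChIP-seq) in 22Rv1, an established human prostate carcinoma line, with 1 library per condition. The 4 lists behind the rule came from engineered cells that all stably expressed the Y36C form of PHF5A, a subunit of the splicing factor SF3B, and that all received doxycycline to induce either wild-type FOXA1 (WT cells) or C258A FOXA1 (C258A cells). Each line was treated for 3 h with DMSO at 0.1% or with WX-02-23 at 20 µM. A further list from each line was made without doxycycline and with DMSO. Parental cells, with neither transgene, gave 6 lists: DMSO, WX-02-23 at 20 µM, the other stereoprobe WX-02-43 at 20 µM, PladB (pladienolide B, a splicing inhibitor that binds SF3B), a small interfering RNA against FOXA1 (siFOXA1) and a control one (siControl). PladB was given at 100 nM per the sample's own label, and the shared treatment protocol names a lower dose for parental cells. The labels give no dose or time for doxycycline or the small interfering RNAs, and do not say whether the lines are single clones. Both lines keep their endogenous FOXA1, and the labels name an antibody against FOXA1 and no tag, so induced and endogenous protein were not separated. No prostate marker was checked, because the lists hold no expression values.

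FOXA1 is a forkhead transcription factor and a pioneer factor: it can bind its sites in compacted chromatin and open them for other factors. In prostate luminal cells it shares many of its sites with the androgen receptor and shapes where that receptor binds. C258A replaces a cysteine of the forkhead domain, the part of the protein that contacts DNA, and cysteine is the residue with which many covalent small molecules react. The Y36C change in PHF5A is known to blunt the effect of splicing inhibitors of the pladienolide type. By the rule, the DMSO libraries of both lines call every site, and so does the C258A library with the stereoprobe. Of these 4 libraries, only the wild-type one with the stereoprobe lacks the call. Each form of FOXA1 was induced in its own engineered line, so an effect of form apart from line was not tested. The lines also differed in list length without doxycycline, at 8575 peaks in the WT line and 12752 in the C258A line. Every condition is a single library, so nothing below could be set against a spread between replicates, and the values carry no test and no p.

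The lists differed in length, which moves every call. The WT cells had 31735 peaks with DMSO and 25849 with WX-02-23, and the C258A cells had 13299 with DMSO and 20609 with WX-02-23. The remaining 8 lists, which the rule did not use, held between 3018 peaks (siFOXA1) and 34119 (siControl). Read depth is unknown, and its part in the calls was not tested. Each peak has a score given by the authors, which was at least 90.0 in every list and was used only to rank or bin peaks of one list.

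In the WT cells, 39.3% of all DMSO peaks had no partner with WX-02-23. Among the 12318 of these DMSO peaks that were also C258A DMSO peaks, the share was 18.1% in the WT cells, and 7.27% had no partner in the C258A WX-02-23 list. Those 12318 peaks fell into 4 classes: 9659 were in all 4 lists, 1764 were WT-lost, 433 showed the mirror pattern (absent with WX-02-23 from the C258A cells only), and 462 were absent with WX-02-23 from both lines. The WT-lost class was thus the largest of the 3 classes with a loss. With all 4 lists reduced to the 13299 peaks with the highest scores, the WT-lost class held 1770 peaks and the mirror class 456. With the top 50% of every list by score, they held 1033 and 189. These counts follow from the rule and describe the 4 libraries, with no test.

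WT-lost sites had modest scores. Their WT DMSO scores ran from 90.0 to 1548, with a median of 213 and quartiles at 149 and 299, against a median of 440 (quartiles 281 and 708) for the all-4 peaks and 192 for the whole list. With the 4 lists at equal length, which drops weak peaks, the median of the WT-lost class was 337, and with the top 50% of every list 360. Their widths ran from 337 to 1787 bp with a median of 646 bp, against 754 bp for the all-4 peaks. The classes overlapped widely in both measures. When the all-4 peaks were weighted to the scores of the WT-lost sites in 10 score bins, their median width became 642 bp, close to that of the WT-lost sites.

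The share that was lost fell from bin to bin as the score rose. Of the WT DMSO peaks called in both C258A lists, 15.4% (95% Wilson interval 14.8 to 16.1%) were WT-lost. In the bin with the lowest scores, up to 114, 58.4% (52.8 to 63.8%) were lost, 177 of them against 126 all-4 peaks. In the bin from 183 to 213 the share was 28.8% (25.3 to 32.5%). In the bin above 409 it was 3.25% (2.81 to 3.75%), 177 against 5277. Comparisons with all-4 peaks below are weighted by score unless said otherwise. These intervals reflect the counting of peaks alone, taken as independent of each other.

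**Figure D1:**
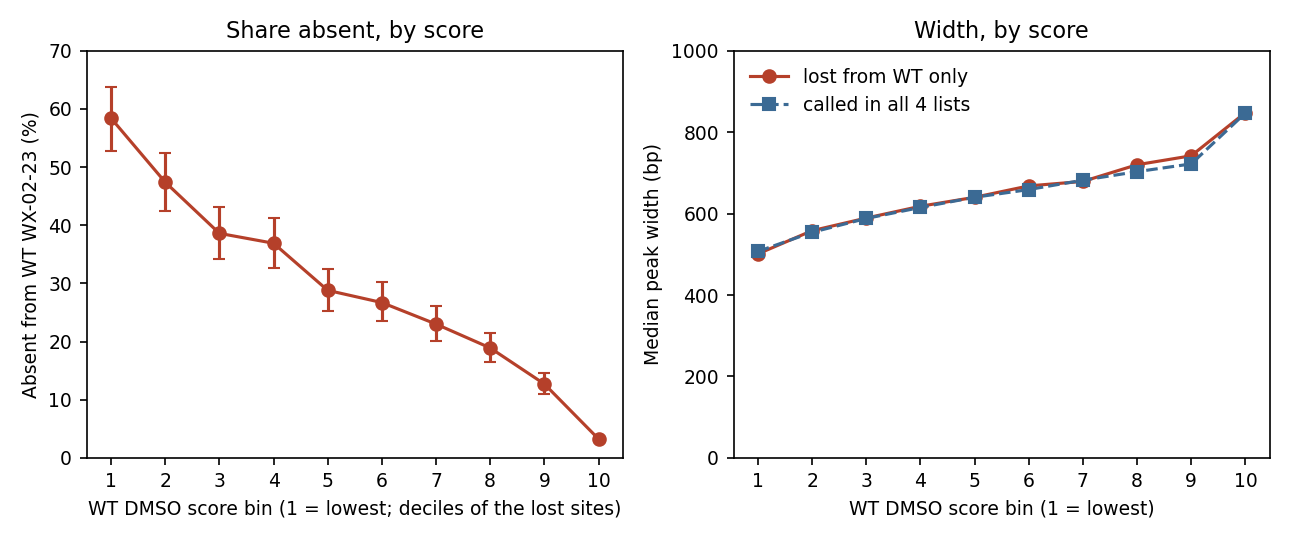
Left, the share of peaks lost from the WT cells with WX-02-23 (percent, with 95% Wilson intervals) among WT DMSO peaks called in both C258A lists, in 10 bins of WT DMSO score; it falls from 58.4% in the lowest bin to 3.25% in the highest. Right, the median width in bp of WT-lost sites and all-4 peaks in the same bins; the curves lie close to each other, at 501 and 507 bp in the lowest bin and 848 and 847 bp in the highest.

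In the C258A cells the same sites were again of middling score. The 1764 partners in the C258A DMSO list had scores from 90.0 to 936 with a median of 134, which stood at the 35.4th percentile of that list. The partners in the C258A WX-02-23 list had scores from 90.0 to 1411 with a median of 172, at percentile 48.4. All-4 peaks weighted to the same WT scores stood higher in both lists, at percentiles 39.7 and 58.3. Weighting by the WT DMSO score thus left the WT-lost sites somewhat weaker in the C258A cells than the peaks they were set against. Scores under 100, close to the lowest that was deposited, were held by 240 (13.6%) of the C258A DMSO partners and by 112 (6.35%) of the C258A WX-02-23 partners. For all-4 peaks, unweighted, the counts were 605 (6.26%) and 156 (1.62%), so WT-lost sites had such low C258A scores more often. On the other side of the rule, 267 (2.76%) of the all-4 peaks had a WT WX-02-23 partner with a score under 100.

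The 8 lists that the rule did not use show where else these sites were called. In parental DMSO 492 WT-lost sites were called, or 27.9% (25.8 to 30.0%), with 35.7% of all WT DMSO peaks as the background. Score-weighted all-4 peaks were called at 32.4% (31.0 to 33.8%), and the WT-lost sites differed from them by -4.54 percentage points (-7.02 to -1.97). In siControl 28.3% were called (background 36.8%, weighted all-4 peaks 32.9%). In PladB 29.0% were called (background 37.0%, weighted all-4 peaks 33.1%). In these 3 lists WT-lost sites were called somewhat less often than all-4 peaks of equal WT score and than WT DMSO peaks at large. The difference from all-4 peaks in DMSO was absent with the top 50% of every list, where both classes were called at 26.6%. Weighted instead by the C258A WX-02-23 score, chosen after seeing the data, all-4 peaks were called at 42.5% in DMSO, and the difference was -14.6 points (-17.1 to -12.1).

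The stereoprobe lists of the parental cells differed from each other at these sites. With WX-02-43, 396 sites were called, or 22.4% (20.6 to 24.5%; background 27.7%), against 27.1% of weighted all-4 peaks, a difference of -4.61 points (-6.91 to -2.21). With the top 50% of every list the WX-02-43 shares were 21.1% and 21.8%, and with the weighting by the C258A score the difference was -12.9 points (-15.2 to -10.5). With WX-02-23, 235 sites were called, or 13.3% (11.8 to 15.0%; background 25.4%), against 26.5% (25.2 to 27.8%) of weighted all-4 peaks, a difference of -13.2 points (-15.2 to -11.1), which the C258A score put at -20.0 (-22.0 to -17.9). The all-4 peaks were thus called at nearly the same rate with both compounds, and the WT-lost sites were not. The rule had already sorted the 2 classes by this compound: all-4 peaks needed a call with WX-02-23 in WT cells, and WT-lost sites needed none. All-4 peaks are therefore no neutral reference here. Over all WT DMSO peaks the shares were 25.4% with WX-02-23 and 27.7% with WX-02-43. The 2 lists were close in length, at 17217 and 18228 peaks, and the dose and time were equal.

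The remaining lists were those made without doxycycline and the one after knockdown. Without doxycycline, 257 sites (14.6%, 13.0 to 16.3%; background 19.6%) were called in the WT line and 394 (22.3%, 20.5 to 24.3%; background 26.1%) in the C258A line. The weighted all-4 values were 21.1% and 27.8%. After knockdown of FOXA1, 3 sites (0.170%, 0.0579 to 0.499%; background 0.659%) were called, against 0.591% of weighted all-4 peaks. Most WT-lost sites were thus called only where FOXA1 had been induced: 1202 of them (68.1%, 65.9 to 70.3%) were in none of the 8 lists, against 58.3% of all WT DMSO peaks and 63.4% (61.9 to 64.9%) of weighted all-4 peaks. At the other end, 147 sites (8.33%, 7.13 to 9.72%) were called in all 7 lists without knockdown, against 17.5% of weighted all-4 peaks.

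**Figure D2:**
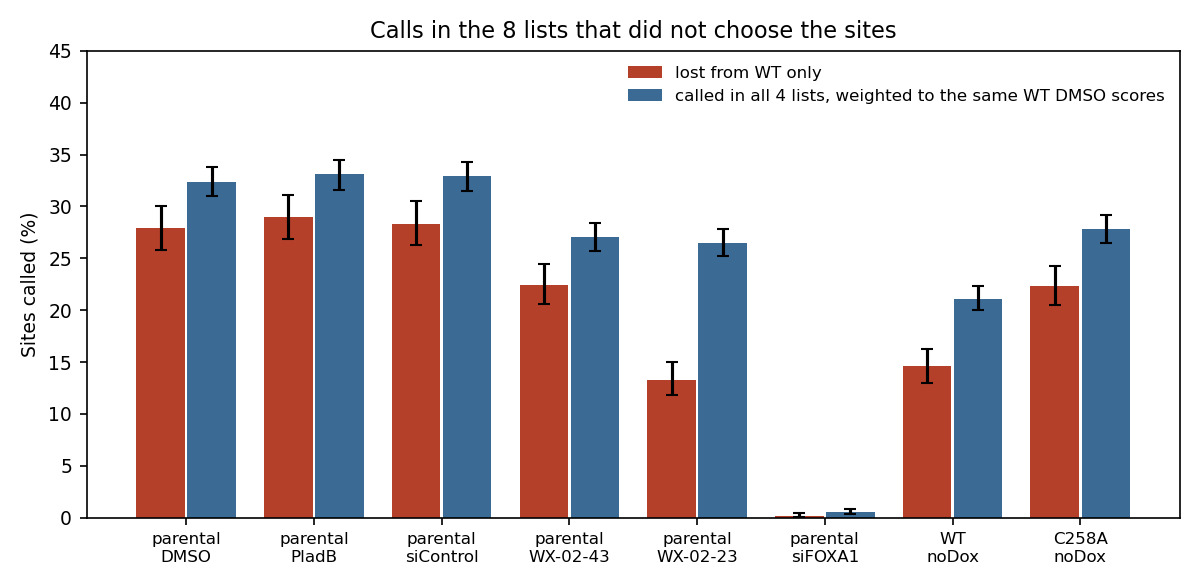
Share of sites called (percent) in each of the 8 lists that the rule did not use, for the 1764 WT-lost sites (Wilson 95% intervals) and for all-4 peaks weighted to the same WT DMSO scores (95% intervals of the weighted share). The gap is widest in parental WX-02-23, at 13.3% against 26.5%. In the other lists without knockdown the difference runs from -6.58 to -4.08 points.

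The stereoprobes were then compared at the sites that parental cells listed without compound. Of the 492 WT-lost sites with a parental DMSO peak, 228 were called in parental WX-02-23, or 46.3% (42.0 to 50.8%), where 65.7% of all WT DMSO peaks with a parental DMSO peak were. With WX-02-43, 385 were called, or 78.3% (74.4 to 81.7%; background 76.1%). PladB kept 469 (95.3%; background 95.6%) and siControl 464 (94.3%; background 94.8%). So the sites stood at the level of WT DMSO peaks at large in 3 of the 4 lists and under it with WX-02-23. Site by site, 217 were called with both stereoprobes, 168 (34.1%) with WX-02-43 alone, 11 (2.24%) with WX-02-23 alone and 96 with neither. Of all-4 peaks with a parental DMSO peak, unweighted, 11.1% were called with WX-02-43 alone and 5.27% with WX-02-23 alone. The same shares were 39.4% and 1.60% for peaks lost from both engineered lines, and 22.3% and 7.43% for mirror peaks. The uneven split was thus not particular to WT-lost sites. Reducing the WX-02-43 list to 17217 peaks, the length of the WX-02-23 list, left its share at 76.0%.

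The gap was also read against all-4 peaks weighted by score, and the part of peak strength in it was not tested. All-4 peaks with a parental DMSO peak, weighted to the WT scores of the 492 sites, were called with WX-02-23 at 77.4% (75.2 to 79.5%). Their share with WX-02-43 was 82.3% (80.3 to 84.3%). The WT-lost sites differed from them by -31.0 points (-35.9 to -26.1) and by -4.05 points (-8.39 to -0.0892). Parental calls depend more directly on the parental score, and the 492 sites had a median parental DMSO score of 459 against 761 for the all-4 peaks. Weighted by that score, a choice made after seeing the data, the share of all-4 peaks called was 71.3% (69.9 to 72.6%) for WX-02-23. It was 77.9% (76.9 to 79.0%) for WX-02-43. The differences were then -24.9 points (-29.5 to -20.3) for WX-02-23 and 0.303 points (-3.71 to 3.89) for WX-02-43. For PladB and siControl they were 0.322 (-2.04 to 2.03) and 0.254 points (-2.28 to 2.15).

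The gap with WX-02-23 was present at each level of parental score. Among the 164 WT-lost sites with the lowest parental DMSO scores (91.1 to 277), WX-02-23 kept 18.3% (13.1 to 24.9%), against 42.3% of the 922 all-4 peaks in that range, counted unweighted. For the middle 164 (278 to 726) the values were 42.1% (34.8 to 49.7%) and 76.5%. For the 164 with the highest scores (731 to 3100) they were 78.7% (71.8 to 84.2%) and 97.5%. With WX-02-43 the corresponding pairs were 45.7% and 43.5%, 89.6% and 92.8%, and 99.4% and 99.8%, with overlapping intervals in each range. In the highest range too, WT-lost sites were thus missing with WX-02-23 more often than all-4 peaks, while WX-02-43 kept nearly all of both. The rule had sorted the classes by WX-02-23 calls in WT cells, so all-4 peaks are no neutral reference for this gap. Parental scores were not matched within a range.

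**Figure D3:**
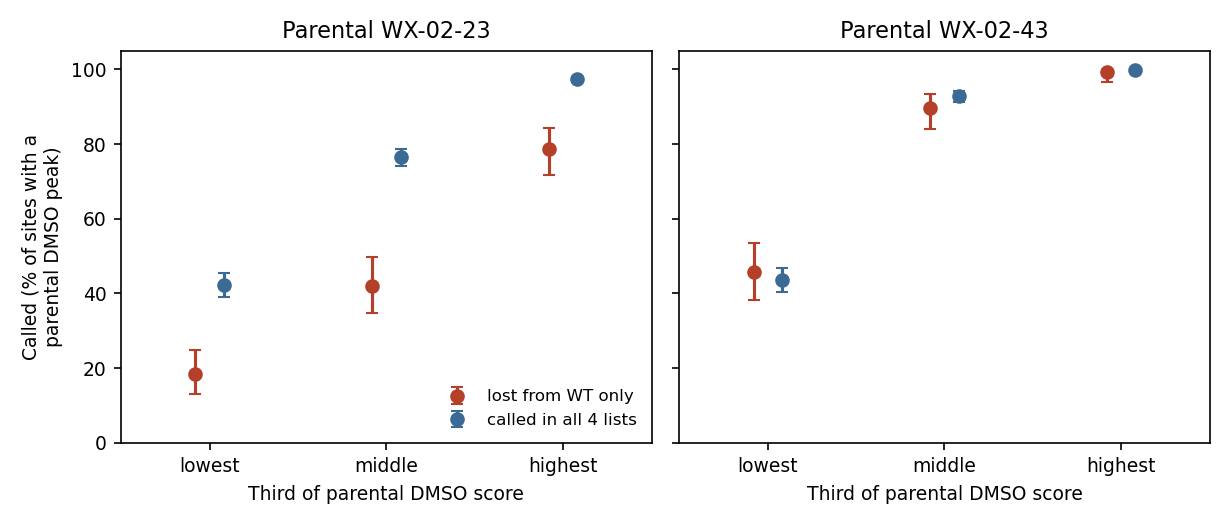
Share of sites called (percent, Wilson 95% intervals) with WX-02-23 (left) and WX-02-43 (right) in parental cells, among sites with a parental DMSO peak, in 3 ranges of parental DMSO score. WT-lost sites lie under all-4 peaks in all 3 ranges with WX-02-23, and the intervals overlap in all 3 with WX-02-43.

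The parental stereoprobe lists were also read at sites that C258A cells lost. Of the 188 parental DMSO sites among peaks lost from both engineered lines, WX-02-23 kept 41.0% (34.2 to 48.1%). For WX-02-43 the share was 78.7% (72.3 to 84.0%). Of the 175 among the mirror peaks, which only the C258A cells lost, the shares were 55.4% (48.0 to 62.6%) and 70.3% (63.1 to 76.6%). The all-4 peaks had 80.2% and 86.0%, unweighted. With all-4 peaks weighted to the parental DMSO scores of each class, also chosen after seeing the data, the difference with WX-02-23 was -28.7 points (-35.7 to -21.5) for peaks lost from both lines and -10.2 points (-17.8 to -2.88) for mirror peaks, beside the -24.9 of the WT-lost sites. With WX-02-43 it was 1.14 points (-5.37 to 6.51) and -1.61 points (-8.88 to 4.80). Peaks lost from both lines, which C258A cells did not keep, thus had a shortfall in parental WX-02-23 whose interval overlapped that of the WT-lost sites, and mirror peaks had a smaller one. The differences between these classes were not tested. That parental and WT calls fall together with WX-02-23 was known from earlier results on these files, so these values describe the sites and are no separate evidence.

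**Figure D4:**
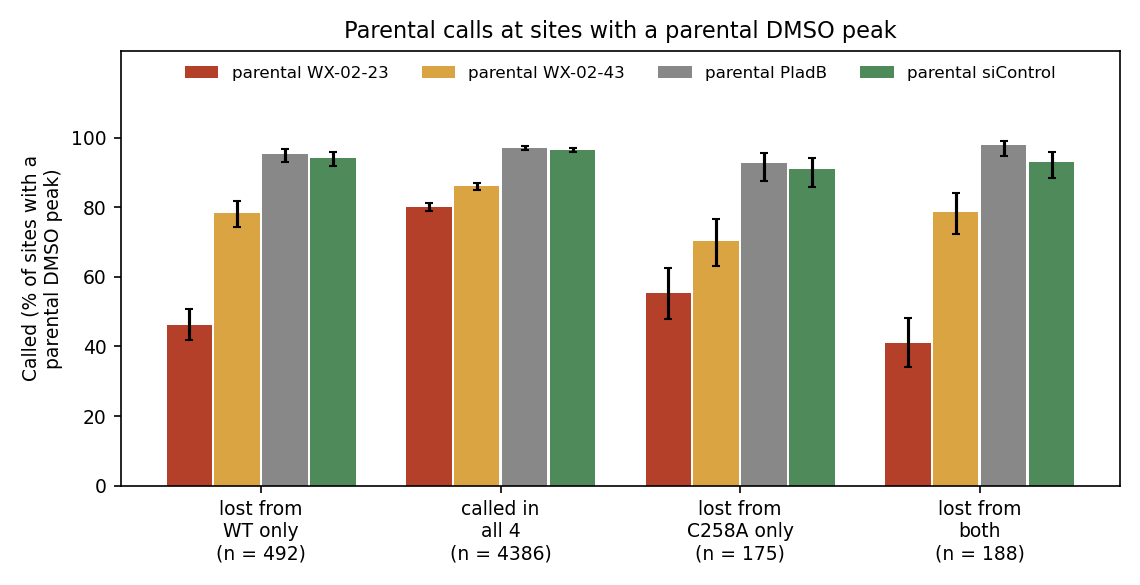
Share of sites with a parental DMSO peak that were also called in 4 other parental lists (percent, Wilson 95% intervals), for WT-lost sites (n = 492), all-4 peaks (n = 4386), mirror peaks lost from C258A cells only (n = 175) and peaks lost from both lines (n = 188). With WX-02-23 all 3 classes with a loss lie between 41.0% and 55.4%, under the 80.2% of all-4 peaks, which are not weighted by score here.

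The other 1272 WT-lost sites (72.1%) had no parental DMSO peak. They were weaker in the WT DMSO list, with a median score of 195 against 264 for the 492, and a median width of 635 bp against 677 bp. Of these 1272, parental cells listed 7 with WX-02-23 (0.550%, 0.267 to 1.13%) and 11 with WX-02-43 (0.865%, 0.484 to 1.54%). All-4 peaks without a parental DMSO peak, weighted by WT score, were listed at 2.37% with WX-02-23 and 0.698% with WX-02-43. Calls in parental cells at these sites were thus rare with either compound.

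Single sites show the range of patterns. The WT-lost site with the highest WT DMSO score lay at chr18:26602679-26603860 (hg19), with scores of 1548 in WT DMSO and 640 and 889 in the C258A lists without and with WX-02-23. It was listed in no other library, and the nearest WT WX-02-23 peak was 149251 bp away. The next, chr7:117033047-117034294, had scores of 1335, 199 and 272 in the same 3 lists and was called in all 7 unused lists without knockdown, including parental WX-02-23 (161) and WX-02-43 (106). Then came chr13:65283685-65284724 with 1129, 341 and 547, and chr5:84821264-84822189 with 1121, 430 and 700, both absent from the other 8 lists. Of the 5 strongest sites, 3 were thus seen with induced FOXA1 alone. The one on chromosome 5 lay 592 bp from a WT WX-02-23 peak, so that locus was not free of calls with WX-02-23.

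The last of the 5 strongest was also the strongest of the 168 sites that parental cells called with DMSO and WX-02-43 but not with WX-02-23. It lay at chr15:27553383-27554560, with scores of 1012 in WT DMSO, 288 in C258A DMSO, 442 in C258A WX-02-23, 648 in parental DMSO and 157 in parental WX-02-43. It was not called in WT cells without doxycycline, and had a score of 939 in C258A cells without it. The nearest WT WX-02-23 peak was 673236 bp away. Its calls in parental DMSO, parental WX-02-43 and the C258A lists with doxycycline follow from how it was picked. So does its lack of a call with WX-02-23 in parental and WT cells. The call in C258A cells without doxycycline does not.

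The other 4 named sites of that kind were picked in the same way, so they too lack a call with WX-02-23 in parental and WT cells. At chr12:77556590-77557405 the scores were 857 in WT DMSO, 403 and 185 in the C258A lists without and with WX-02-23, 1293 in parental DMSO and 608 in parental WX-02-43. At chr8:110592084-110592963 they were 603, 186, 226, 1217 and 369. At chr1:169437134-169438108 they were 645, 225, 328, 217 and 112. At chr2:213411868-213413121 they were 712, 301, 348, 180 and 175, with a WT WX-02-23 peak 304 bp away. All 4 were also called with PladB and siControl, and none with siFOXA1.

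Among sites without a parental DMSO peak, the C258A WX-02-23 score put chr3:144108864-144109354 first, at 1411. Its WT DMSO score was 113, and a WT DMSO peak with a score of 1766 that WX-02-23 kept lay 20 bp away, so this entry adjoins a kept peak. It overlapped peaks of 4 parental lists, with scores of 1123 in PladB, 1542 in siControl, 659 in WX-02-43 and 300 in WX-02-23. The others were the chromosome 18 site above (889) and chr7:145450707-145451571, with 759 in WT DMSO and 535 and 838 in the C258A lists without and with WX-02-23. Of all WT-lost sites, 109 (6.18%) lay within 500 bp of another WT DMSO peak, and 73 (4.14%) beside one that was kept. A non-overlapping WT WX-02-23 peak lay within 500 bp of 3.85% of WT-lost sites and 4.79% of all-4 peaks, unweighted.

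At the edge of the rule, the sites closest to a WT WX-02-23 peak were chr12:60660082-60660815 (score 337) at 12 bp, chr4:63819967-63820828 (384) at 15 bp and chr2:189963654-189964319 (451) at 19 bp. Just outside it, the all-4 peaks with the smallest overlap were chr8:116490995-116491800 (411) with 81 bp, chr5:99361284-99361940 (153) with 119 bp and chr9:86449406-86450395 (341) with 176 bp. These entries are extremes, so they do not show how often peak borders decide a call. The WT-lost class held 1829 sites with a reciprocal overlap of 50% and 1737 with a gap of up to 500 bp allowed, beside 1764.

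Most WT-lost sites were not next to a WT WX-02-23 peak, whether that peak was also in WT DMSO or not. The distance to the nearest WT WX-02-23 peak had a median of 22.0 kb (quartiles 7.12 and 54.6 kb) and a maximum of 695 kb. Unweighted, the median distance of all-4 peaks to the nearest WT WX-02-23 peak other than their own partner was 20.5 kb (quartiles 5.71 and 54.0 kb). Within 10 kb, 30.4% of WT-lost sites had any such WT WX-02-23 peak, against 29.5% of all-4 peaks weighted by score. By this measure both classes had WT WX-02-23 peaks at like distances.

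With neighbours joined at up to 100 kb, WT-lost sites formed 1300 singletons, 149 pairs and 46 longer runs with 166 sites in all. Runs were not counted for other peaks, so these counts cannot be called particular to WT-lost sites. The longest run lay on chromosome Y from 9180906 to 9338931, where 8 of 10 WT DMSO peaks were WT-lost and 2 were all-4 peaks. Its WT DMSO scores ran from 97.3 to 508, and the 2 all-4 peaks (798 and 521) had WT WX-02-23 scores of 119 and 96.9. Start-to-start distances between neighbouring peaks there repeated: 4 lay between 7.29 and 7.47 kb and 3 between 12.8 and 13.1 kb. In evenly repeated stretches, reads of 1 copy may not be separable from those of another, and how multiply aligned reads were handled is not given in the sources used here. The same stretch held 10 siFOXA1 and 4 siControl peaks and none in the other 4 parental lists. None of the 8 WT-lost sites overlapped a siFOXA1 peak, and 1 overlapped a siControl peak.

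Other runs were short. On chromosome 7 from 125147408 to 125296068, 7 of 13 WT DMSO peaks were WT-lost and 5 were kept with WX-02-23. The next size, 5 WT-lost sites, was reached by 5 runs. The first of them by position, on chromosome 1 from 194716141 to 194877458, had 5 of 11 WT DMSO peaks WT-lost and 6 kept. In the run on chromosome 1 from 198259565 to 198375738, named after its values were seen, 5 of 8 were WT-lost and 0 were kept. In the other 3 runs of that size, between 3 and 7 peaks were kept. None of the WT-lost sites in the runs given by position here, on chromosomes Y, 7 and 1, was a parental DMSO peak. Of the other 3 runs of 5 sites, those on chromosomes 5 and 8 held 1 such site each and that on chromosome 18 held 0.

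WT-lost sites were found on all 24 chromosomes. The count that each chromosome would have from its peaks' scores alone was set beside the observed one. Chromosome 1 held 169 sites (166 from scores) and chromosome 4 held 169 (163). Chromosome 5 held 139 (121) and chromosome 7 held 154 (144), while chromosome 2 held 115 (130) and chromosome 10 held 58 (74.1). Chromosome 16 held 27 (26.3), chromosome 17 held 19 (25.2), chromosome 19 held 6 (8.12) and chromosome 22 held 2 (6.99). On chromosome 22 the share of WT-lost sites was 3.70% (1.02 to 12.5%), against 15.4% over all chromosomes. Chromosome Y held 15 (11.5), 8 of them in the run above. With counts this small and 24 chromosomes compared, none of these is called a difference.

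**Figure D5:**
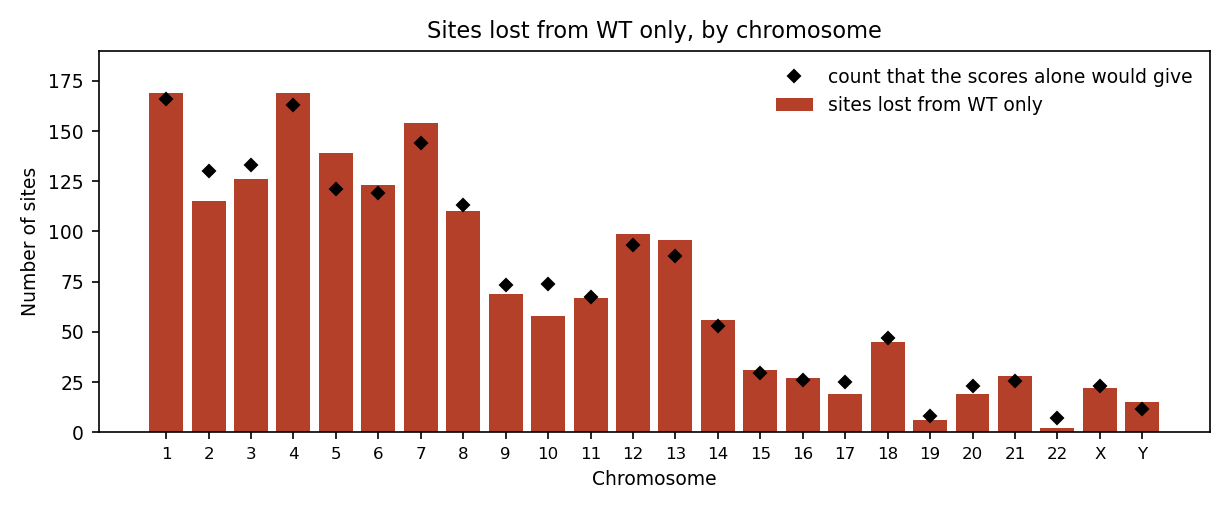
Number of WT-lost sites on each chromosome (bars) and the number that the WT DMSO scores of the peaks on that chromosome would give (diamonds). Bars and diamonds lie close on most chromosomes; chromosome 22 has 2 sites against 6.99 and chromosome 5 has 139 against 121.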

How the data were processed

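FOXA1 ChIP-seq peak lists from 12 libraries were used, and 3 input samples were not analysed here. Each deposited list has 5 columns (chromosome, start, end, name, score). The score is the authors' own value per peak, as deposited; its definition is not given in the sources used here. Peak names begin with MACS, per the files, and caller version, threshold and control are not given in the sources used here. The submitters' processing notes name bcl2fastq, Bowtie2 and the build hg19, which fits the last peak ends on chromosomes 1 (249239322) and Y (59361844). Printed starts are those of the files plus 1. A genome of hg19 was not used here, so no sequence, motif or nearest gene is given.

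An overlap of 1 bp or more counted as a shared call; the overlap code was checked against bedtools 2.31.1 and tested on simulated data. All-4 peaks were weighted to the WT-lost sites by 10 score bins, exactly and with nothing drawn at random. Intervals are 95% (Wilson, scipy 1.17.1; stratified for weighted shares; combined for differences). Alternatives were other overlap rules, equal list length, the top 50% of each list, autosomes, 20 bins and other scores for weighting. Named positions are the 5 WT-lost sites with the highest WT DMSO score, the 5 highest called in parental DMSO and WX-02-43 but not WX-02-23, the 3 with the highest C258A WX-02-23 score without a parental DMSO peak, the 3 nearest to and the 3 least overlapping a WT WX-02-23 peak, and the 3 largest runs, with ties going to the first by position. The sites and lists were chosen with earlier results of these data known.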

Additional observations from a re-analysis of the deposited data

How the results depend on the processing

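For 15 results, 75 alternative values were computed: 42 stayed within the interval or 1.5 times the count and 33 moved. None of the 13 values from autosomes alone or the 3 from 20 score bins moved.

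With the 4 induced lists at equal length (13299 peaks), 21.7% of shared peaks were WT-lost, with a median score of 337 and width of 725 bp. WT-lost sites were called at 37.6% in parental DMSO, 22.8% in WX-02-23 and 31.9% in WX-02-43, and weighted all-4 peaks at 41.6%, 36.7% and 35.6%. Of parental DMSO sites, 59.1% were called with WX-02-23 and 83.9% with WX-02-43, against 83.8% and 87.3% of all-4 peaks, unweighted.

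With the top 50% of every list, 1033 sites were WT-lost, 189 were mirror peaks and the WT-lost share was 18.0%, with a median score of 360 and width of 740 bp. WX-02-23 listed 10.6% of WT-lost sites and 39.3% of those in parental DMSO; weighted all-4 peaks were at 26.6% in DMSO, 22.1% in WX-02-23 and 21.8% in WX-02-43. A reciprocal overlap of 50% gave a share of 17.4%, a median score of 223 and 29.8% for weighted all-4 peaks in DMSO. A gap of 500 bp gave 14.8%, and 36.2%, 29.7% and 30.0% for weighted all-4 peaks in DMSO, WX-02-23 and WX-02-43. Weighting by the C258A WX-02-23 score, chosen after seeing the data, gave 42.5%, 33.3% and 35.4%. In each of these settings the WT-lost sites were called less often with WX-02-23 than weighted all-4 peaks. In all of them the rule still asked all-4 peaks for a WT WX-02-23 call and WT-lost sites for none. The all-4 peaks are therefore no neutral reference there either.

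No paired analysis was possible because each condition has 1 library. Read depth is unknown, so the depth behind a missing call cannot be given.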
